A study of Mus musculus with 15 samples.

Results

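The 9 genes described here are outputs and repressors of the circadian clock, chosen by gene name from the 54532 genes in the deposited count tables: Dbp, Tef and Hlf (activators of the PAR bZIP family), Nfil3, Bhlhe40, Bhlhe41 and Ciart (repressors), and Rgs16 and Usp2 (other rhythmic outputs). RNA-seq was run on poly-A RNA from the livers of 4 mice on a control diet (CS group) and 5 mice on a diet with 2% phytosterols (PS group). Lung libraries came from 3 CS mice and 3 PS mice. All were male wild-type C57BL/6J mice, and 6 gave both tissues. The labels give 28 weeks as their age, whereas in the study's methods 28 weeks is the time of feeding after purchase as young adults, so the mice may have been older than labelled. All 9 genes passed the filter on low counts in every comparison.

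The circadian clock is a feedback loop in which CLOCK and BMAL1 (the product of Arntl) switch on genes through E-boxes in their promoters, and PER and CRY proteins then shut CLOCK and BMAL1 off. The clock reaches other genes through output factors: DBP, TEF and HLF activate genes that carry a D-box, and NFIL3 represses the same sites. BHLHE40, BHLHE41 and CIART act back on CLOCK and BMAL1 as repressors. In mouse liver the RNAs of these genes are known to swing over the day. The clock time at which each mouse was killed is not given in the sources used here, so diet and time of collection cannot be told apart in any value below.

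The promoters of 4 of these genes are shown because E-boxes and the element bound by ROR and REV-ERB receptors are the letters through which the core clock is known to reach such genes. Each is a RefSeq window from 250 bases before to 50 bases after the transcription start on build GRCm38.p6, written 5′ to 3′ on the strand of the gene, with motif matches in capitals. The windows are chr3:95882179-95882478 (minus strand) for Ciart, chr15:81802423-81802722 (plus strand) for Tef, chr6:145865371-145865670 (minus strand) for Bhlhe41 and chr13:52980990-52981289 (minus strand) for Nfil3.
Ciart: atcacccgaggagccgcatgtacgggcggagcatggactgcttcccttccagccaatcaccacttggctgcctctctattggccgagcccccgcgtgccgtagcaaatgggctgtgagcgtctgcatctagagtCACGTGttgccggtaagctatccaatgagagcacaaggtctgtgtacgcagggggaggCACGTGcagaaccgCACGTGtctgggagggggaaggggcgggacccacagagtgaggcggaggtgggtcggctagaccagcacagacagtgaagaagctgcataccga
Tef: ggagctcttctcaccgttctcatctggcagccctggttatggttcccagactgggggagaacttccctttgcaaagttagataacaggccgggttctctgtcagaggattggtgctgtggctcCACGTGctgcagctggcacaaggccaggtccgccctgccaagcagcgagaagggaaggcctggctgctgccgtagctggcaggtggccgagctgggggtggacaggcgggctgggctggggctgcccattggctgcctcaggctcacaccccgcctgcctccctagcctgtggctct
Bhlhe41: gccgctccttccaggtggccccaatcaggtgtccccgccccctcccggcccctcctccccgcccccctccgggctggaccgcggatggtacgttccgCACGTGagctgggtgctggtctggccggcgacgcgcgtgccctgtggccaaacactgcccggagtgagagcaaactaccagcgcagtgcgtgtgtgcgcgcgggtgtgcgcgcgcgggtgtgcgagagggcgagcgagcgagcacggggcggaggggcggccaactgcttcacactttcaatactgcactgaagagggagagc
Nfil3: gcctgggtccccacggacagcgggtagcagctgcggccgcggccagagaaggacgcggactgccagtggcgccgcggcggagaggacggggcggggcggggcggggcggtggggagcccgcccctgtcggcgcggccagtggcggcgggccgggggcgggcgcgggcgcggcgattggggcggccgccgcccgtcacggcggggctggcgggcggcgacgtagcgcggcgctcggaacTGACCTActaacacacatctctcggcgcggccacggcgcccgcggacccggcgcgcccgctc

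Ciart held 3 E-boxes (CACGTG), which began 116, 58 and 44 bases before the start. Tef held 1 at 127 bases and another 1 at 138 bases before its second start, and Bhlhe41 held 1 at 153 bases. Nfil3 held the ROR element TAGGTCA on the opposite strand (TGACCTA as printed), 12 bases before the start. Promoters were matched for 8 of the 9 genes, and 3 of those 8 held an E-box, compared with 7.15% of 32851 RefSeq promoters of the same length. The ROR element was in 2.61% of all promoters. The cyclic AMP response element TGACGTCA was found in Hlf, 9 bases before the start, and in 1.79% of all promoters. The D-box (TTATGTAA, TTATGCAA or TTACGTAA) and the E-box variant CACGTT were searched too. Neither was found in the 8 genes, and they were in 1.78% and 4.68% of all promoters. Both strands were searched, and no match overlapped another. A match is a description of letters, not of binding.

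Library totals ran from 14410117 to 17625179 assigned reads in the liver and from 17934930 to 19396057 in the lung. Liver libraries held 81164 to 124525 CPM (counts per 1000000 assigned reads, after scaling) of 6 hepatocyte genes summed, lung libraries 6.68 to 135, and 6 alveolar epithelial genes summed to 21915 to 36900 CPM in the lung and 25.4 to 53.3 in the liver, so each tissue carried its own markers. The liver of mouse CS02 stood apart from the other 3 CS livers: it was above them in 6 of the 9 genes, below them in 2, and within the PS range in 3. Over all genes, the chi-square of counts per gene was 263 to 332 between CS02 and each other CS liver and 42.2 to 96.6 among those 3. In the lung, PS replicate 1 (mouse PS04) lay below the other 2 PS lungs in 5 of the 9 genes and above them in 2. Single CS lungs stood apart as often: CS01 lay above the other 2 CS lungs in 5 and below them in 2. CS02 lay below the others in 4 and above them in 3. Bulk RNA does not tell fewer cells of a type from less RNA per cell. The 9 genes were chosen with diet results of these data known, so everything that compares the diets is a description and not a test of them. Levels are in CPM, scaled within each tissue by the TMM method. Differences are log2 fold changes, PS over CS, from edgeR's quasi-likelihood fit over all genes, with their standard error (SE).

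The PAR bZIP activators were higher in PS livers, 8.88-fold for Dbp, 2.04-fold for Tef and 1.80-fold for Hlf in the fitted values. Dbp (ENSMUSG00000059824; mm10 chr7:45705088-45710203, plus strand), the best known output factor of the liver clock, had 0.828, 26.6, 4.41 and 2.30 CPM in the 4 CS livers and 108, 28.4, 91.4, 37.9 and 112 CPM in the 5 PS livers. The groups did not overlap, but the CS02 liver lay just under the lowest PS liver while the other 3 CS livers were far below it. The log2 fold change was 3.15 (SE 0.87). Part of Dbp lies over Sphk2, a sphingosine kinase gene on the other strand, with 539 shared exonic bases. Sphk2 averaged 954 counts per liver and 539.2 per lung, and whether the counting used strand is not stated, so reads in that stretch cannot be told apart.

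Tef (ENSMUSG00000022389; chr15:81802421-81826863, plus strand), a close relative of Dbp, had 31.6, 164, 72.7 and 65.9 CPM in CS livers and 226.8, 96.5, 220.2, 139.5 and 170.1 CPM in PS livers. The groups overlapped through CS02 alone, which was above PS05 and PS11, and the log2 fold change was 1.03 (SE 0.42). It moved between 0.76 and 1.59 when single livers were left out. Hlf (ENSMUSG00000003949; chr11:90336536-90390895, minus strand), the third activator, had 33.7, 26.8, 49.6 and 35.2 CPM in CS livers and 63.4, 70.6, 56.9, 66.1 and 69.4 CPM in PS livers. Every PS liver was above every CS liver, the PS values lay close together, and CS02 was here the lowest of all. The log2 fold change of Hlf was 0.85 (SE 0.19).

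Among the repressors, Nfil3 alone was lower in PS livers, and the other 3 were higher. Nfil3 (ENSMUSG00000056749; chr13:52967209-52981073, minus strand), the D-box repressor that opposes Dbp, had 109, 27.0, 58.7 and 61.6 CPM in CS livers and 29.1, 37.2, 31.9, 37.3 and 31.2 CPM in PS livers. All CS livers but CS02 were above every PS liver, and CS02 was below every PS liver. The log2 fold change was -0.94 (SE 0.31), which became -0.56 without CS replicate 1 and -1.20 without CS02.

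Bhlhe40 (ENSMUSG00000030103; chr6:108660629-108666925, plus strand), a repressor that competes for E-boxes, had 15.8, 15.9, 26.3 and 24.3 CPM in CS livers and 82.2, 46.2, 53.0, 103 and 82.8 CPM in PS livers. The groups were well apart, CS02 was among the low CS values, and the log2 fold change was 1.84 (SE 0.28). Its relative Bhlhe41 (ENSMUSG00000030256; chr6:145858243-145865558, minus strand) was scarce in the liver, at 0.386, 3.10, 0.406 and 1.34 CPM in CS and 5.41, 1.82, 3.73, 3.09 and 4.31 CPM in PS. CS02 fell inside the PS range, and the log2 fold change was 1.5 (SE 0.59). It was 2.37 without CS02, and 0.38 with limma on log2(FPKM + 1), a scale that shrinks the change of low genes. Bhlhe41 shares 1280 exonic bases with Gm43909 on the other strand, which averaged 0.333 counts per liver and 3.33 per lung.

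Ciart (ENSMUSG00000038550; chr3:95878503-95882251, minus strand), also called Chrono, had the largest fitted difference of the 9 genes in the liver by counts, though not on the log2(FPKM + 1) scale, where it was 2.13, below Dbp at 3.08 and Rgs16 at 3.04. It had 0.166, 2.76, 0.058 and 0.256 CPM in CS livers, from 3, 41, 1 and 4 counts, and 19.6, 5.12, 19.2, 4.21 and 11.9 CPM in PS livers, from 254, 90, 329, 75 and 180 counts. The groups did not overlap, and CS02 was near the lowest PS livers. The log2 fold change was 3.92 (SE 0.90), and it rests on very few counts on the CS side. Gm9176 is 96.7% identical to Ciart over 1126 bases and could share reads with it. It averaged 1.11 counts per liver and 2.83 per lung.

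The remaining outputs followed the activators in the liver. Rgs16 (ENSMUSG00000026475; chr1:153740349-153745468, plus strand), a regulator of G protein signalling, had 11.4, 35.3, 14 and 8.32 CPM in CS livers and 205, 78.2, 172, 76.2 and 254 CPM in PS livers. The lowest PS liver was above the highest CS liver, which was again CS02, and the log2 fold change was 3.19 (SE 0.52). Usp2 (ENSMUSG00000032010; chr9:44067021-44095627, plus strand), a deubiquitinating enzyme, had 1.82, 28.9, 5.92 and 4.16 CPM in CS livers and 45.0, 19.4, 42.4, 30.6 and 40.6 CPM in PS livers. CS02 was above PS05 and below the other 4 PS livers, and the log2 fold change was 1.81 (SE 0.65).

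**Figure D1:**
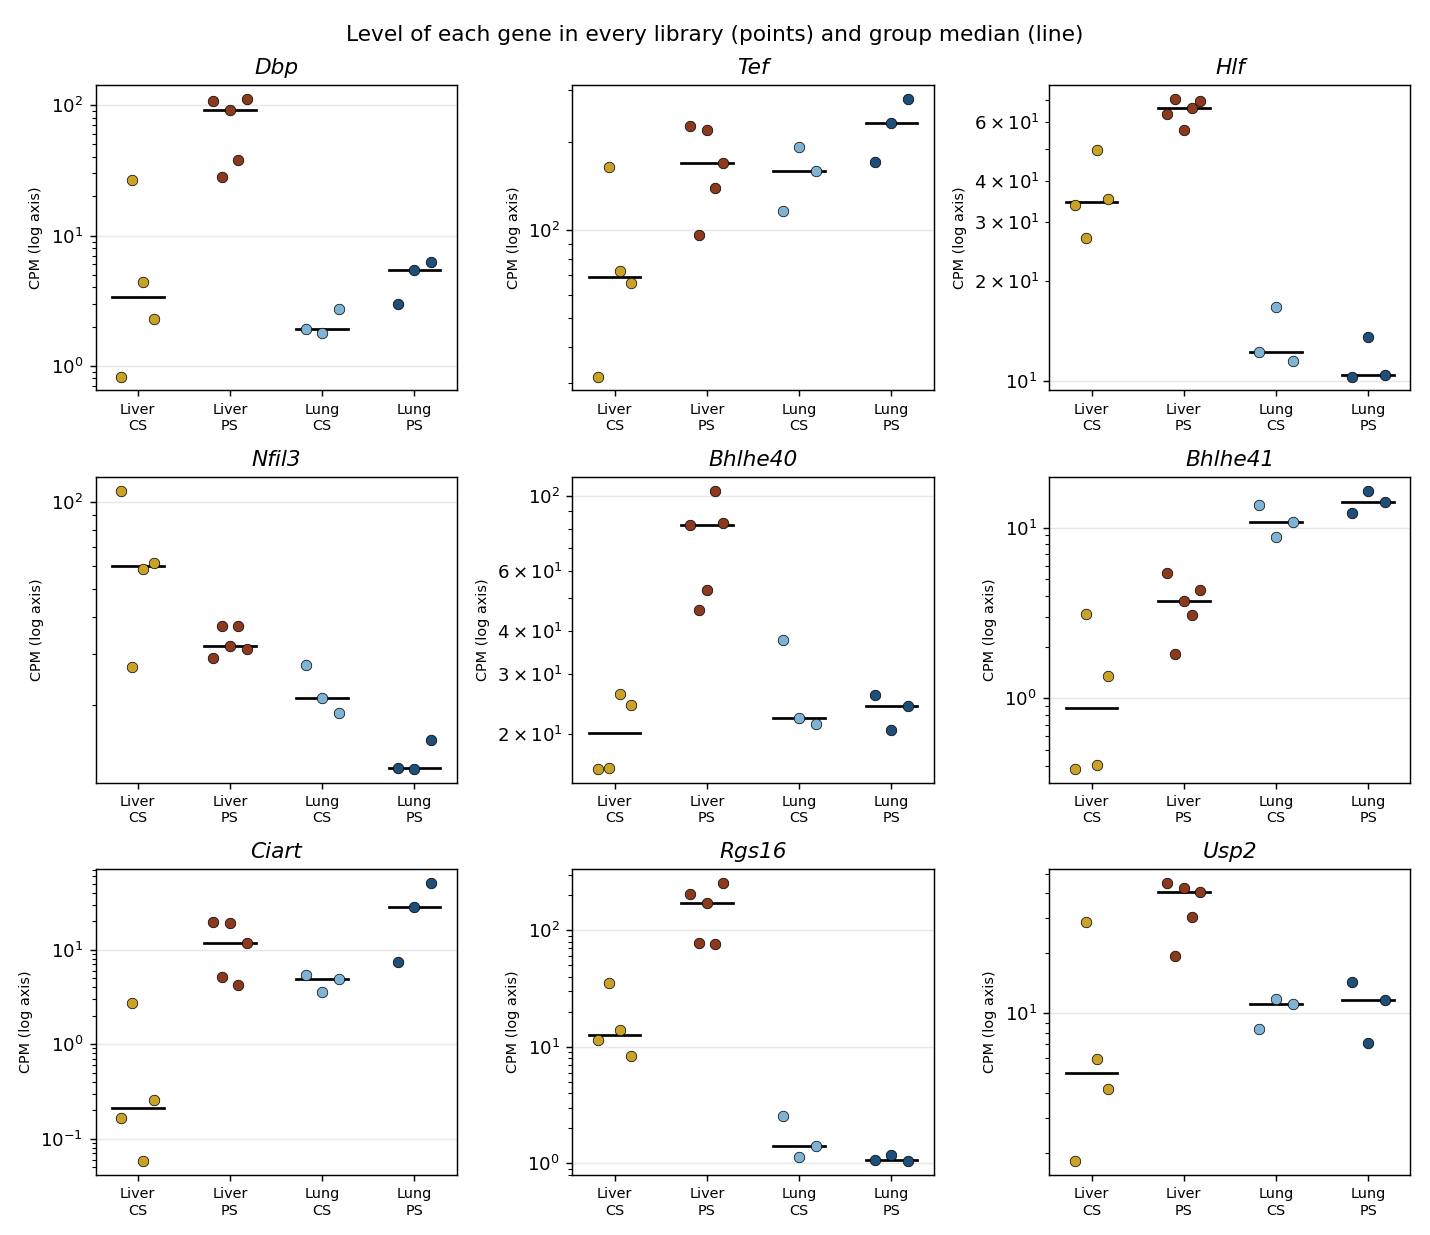
Level of each of the 9 genes in every library, in CPM on a log axis, for liver and lung on each diet; points are libraries and lines are group medians, and each panel has its own axis range. CPM were scaled within each tissue, so liver and lung points are not to be compared in height. In the liver the PS points sit above the CS points for Dbp, Hlf, Bhlhe40, Ciart and Rgs16, and 1 CS point (CS02) reaches into the PS range for Tef, Bhlhe41 and Usp2.

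In the liver, PS levels were above CS levels for 8 of the 9 genes and below for 1. Their median log2 fold change was 1.81, compared with -0.03 over all 13195 genes tested. The diets did not overlap for 5 of the 9 (Dbp, Hlf, Bhlhe40, Ciart and Rgs16), beside 3.63% of all genes tested. None of the 9 passed an adjusted p of 0.05 in edgeR (0 called), beside 0.00758% of all genes, and the smallest adjusted p among them was 0.0974, for Bhlhe40 and Rgs16. All 9 had an unadjusted p of at most 0.05, beside 7.55% of all genes. This number was 6 without CS replicate 1 (699 of all 13430 genes) or 4 (1118 of 13469) and with the replicate number as a block (487 of 13195). It was 7 without CS replicate 3 (1063 of 13479) or PS replicate 1 (807 of 13042). It was 8 without PS replicate 3 (704 of 12995) or 5 (806 of 13076). DESeq2's Wald test called 4 of them (Hlf, Bhlhe40, Ciart and Rgs16), beside 1.24% of all genes, and limma called 0 of them on log2(FPKM + 1) or log2(FPKM + 0.1), where it called 6 and 4 of all genes. Without the CS02 liver, edgeR called 5 higher (Dbp, Bhlhe40, Ciart, Rgs16 and Usp2) and 1 lower (Nfil3), beside 0.486% of all genes, and the median was 2.37. The log2 fold change of Dbp was then 4.91 (SE 0.66), that of Ciart 6.18 (SE 0.77), that of Rgs16 3.80 (SE 0.46) and that of Usp2 3.16 (SE 0.40). The call and value of Ciart there rest on 3, 1 and 4 counts in the remaining CS livers, and Ciart passed the filter on low counts only through the PS livers.

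In the lung the diet differences were smaller and did not run one way. Ciart had 5.46, 3.60 and 4.94 CPM in CS lungs and 7.34, 28.1 and 50.8 CPM in PS lungs, a log2 fold change of 2.62 (SE 0.62). The groups did not overlap, but PS04 stayed close to the CS lungs and the other 2 PS lungs were far above. Dbp had 1.92, 1.80 and 2.71 CPM in CS lungs and 2.96, 5.41 and 6.29 CPM in PS lungs, a log2 fold change of 1.19 (SE 0.36), again with PS04 the nearest to the CS group. Dbp was thus a low gene in every lung, with 35 to 114 counts. Its log2 fold change lay between 0.60 and 1.44 over all alternatives, and between 0.97 and 1.44 when single lungs were left out.

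Nfil3 was lower in PS lungs, with 27.5, 21.1 and 18.8 CPM in CS and 12.1, 12.1 and 15.2 CPM in PS. No PS lung reached the lowest CS lung, and the log2 fold change was -0.78 (SE 0.20). Tef had 117, 192 and 159.7 CPM in CS lungs and 171, 233 and 281 CPM in PS lungs, with CS02 above PS04 and a log2 fold change of 0.55 (SE 0.23). Bhlhe41 had 13.6, 8.79 and 10.8 CPM in CS lungs and 12.1, 16.4 and 14.1 CPM in PS lungs, which overlapped, and its log2 fold change was 0.36 (SE 0.22).

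The other 4 genes, all higher in PS livers, did not show that in the lung. Hlf had 12.2, 16.7 and 11.5 CPM in CS lungs and 10.3, 13.5 and 10.4 CPM in PS lungs (log2 fold change -0.24, SE 0.22). Bhlhe40 had 37.7, 22.3 and 21.4 CPM in CS lungs and 26.1, 20.5 and 24.1 CPM in PS lungs (-0.20, SE 0.23). Usp2 had 8.34, 11.8 and 11.2 CPM in CS lungs and 14.4, 7.09 and 11.7 CPM in PS lungs (0.08, SE 0.28). The diets overlapped for these 3 genes. Rgs16 was scarce in the lung, with 18 to 50 counts, and had 2.53, 1.13 and 1.41 CPM in CS lungs and 1.07, 1.17 and 1.05 CPM in PS lungs (-0.62, SE 0.41).

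In the lung, edgeR called 1 of the 9 higher (Ciart) and 1 lower (Nfil3) at an adjusted p under 0.05, beside 9.22% of all 16717 genes (4.80% higher and 4.43% lower). The diets did not overlap for 3 of the 9 (Dbp, Nfil3 and Ciart), beside 36.0% of all genes. The median log2 fold change of the 9 was 0.08, compared with 0.01 over all genes. DESeq2's Wald test called Dbp higher as well, 3 of the 9 in all, beside 18.5% of all genes called by that test. Both edgeR calls were lost without CS replicate 1, 2 or 3 or without PS replicate 2, where edgeR called 0.134%, 0.151%, 0.00% and 0.0528% of all genes, so that nearly all calls over the genome were lost there too (without CS replicate 3, 3890 genes had an unadjusted p of at most 0.05). Both were also lost with limma on log2 FPKM, which called 6.49% of all genes at either pseudocount, and with the replicate number as a block, which called 9.71%. The call of Ciart was lost without a filter on low counts (8.02% of all genes called, Dbp among them) and without PS replicate 3 (13.2% called), where its log2 fold change was 1.92 (SE 0.51). That of Nfil3 was lost without PS replicate 1 (17.1% called). The 2 PS lungs with high Ciart and Dbp, PS09 and PS15, had 32.5 and 69.8 CPM of 6 heart and skeletal muscle genes summed, compared with 159 to 442 in the other 4 lungs. The same 2 lungs had 10.4 and 7.50 CPM of 4 fat cell genes, compared with 14 to 72.8 in the others. All 6 alveolar epithelial genes had counts, and they summed to 21915 to 22346 CPM in CS lungs and 24597 to 36900 in PS lungs. B and plasma cell genes (4 listed) also did not overlap, with 653 to 1204 CPM in CS lungs and 1337 to 1744 in PS lungs. The sums of airway epithelial, endothelial, T and NK cell and macrophage genes overlapped between the diets in the lung. The part of these tissue markers in the diet differences was not tested.

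**Figure D2:**
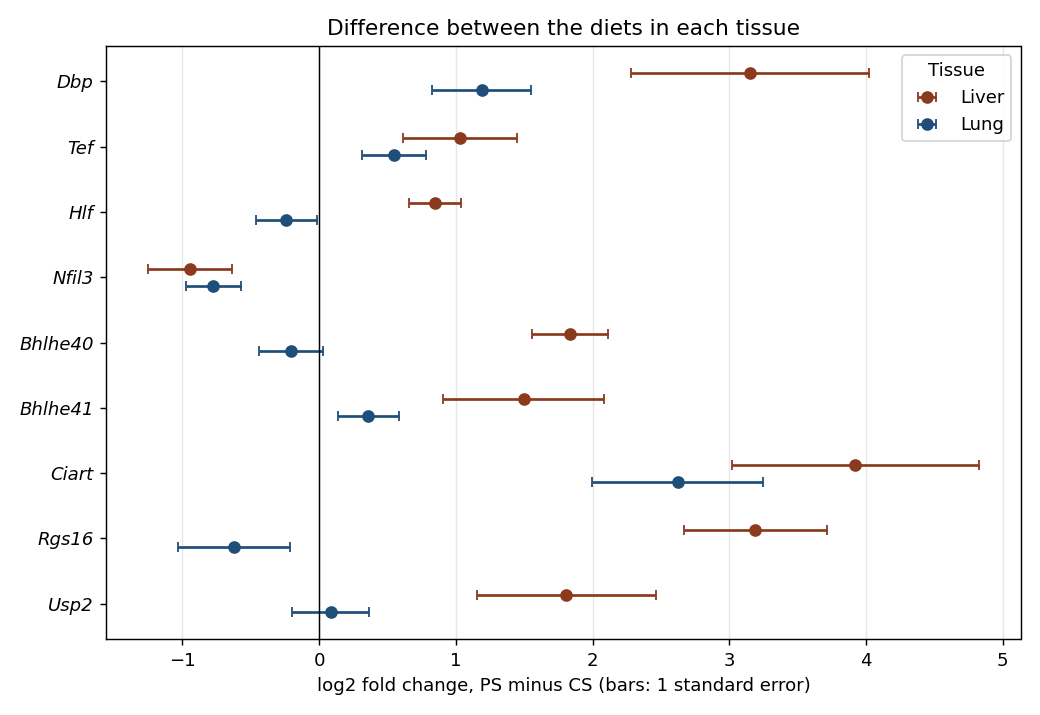
Log2 fold change, PS over CS, of each of the 9 genes in the liver (4 CS, 5 PS) and the lung (3 CS, 3 PS), with bars of 1 standard error from the edgeR fit in each tissue. Nfil3 lies below 0 in both tissues, Dbp, Tef, Bhlhe41 and Ciart lie above 0 in both, and Hlf, Bhlhe40 and Rgs16 lie above 0 in the liver and below it in the lung; Usp2 is near 0 in the lung (0.08).

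The difference between the lung and liver diet effects was fitted in 1 model over all 15 libraries. It was -3.87 for Rgs16 (SE 0.74), -2.08 for Bhlhe40 (SE 0.41), -1.13 for Hlf (SE 0.30) and -1.80 for Usp2 (SE 0.84), the 4 genes that were higher in PS livers and not in PS lungs. It was -2.05 for Dbp (SE 1.11), -1.39 for Ciart (SE 1.13), -1.20 for Bhlhe41 (SE 0.72), -0.55 for Tef (SE 0.56) and 0.13 for Nfil3 (SE 0.44). EdgeR called 0 of the 9 at an adjusted p under 0.05, beside 0.0226% of all 17696 genes, and 4 of the 9 (Rgs16, Bhlhe40, Hlf and Usp2) were lower at an unadjusted p of at most 0.05, beside 5.40%. DESeq2 called 3 (Rgs16, Bhlhe40 and Hlf), beside 1.32% of all genes. Without the CS02 liver edgeR called 2, Rgs16 at -4.45 (SE 0.63) and Usp2 at -3.11 (SE 0.51), beside 0.0568%, and the difference was -3.75 for Dbp, -3.63 for Ciart and -2.04 for Bhlhe41. Without PS replicate 3 of the lung it was -2.05 for Ciart. With mouse as a block, over the 6 mice with both tissues, it was -3.16 for Dbp, -2.56 for Ciart, -1.93 for Bhlhe41 and -2.51 for Usp2, and edgeR called 0 of the 9 and 0 of all 17605 genes, of which 979 had an unadjusted p of at most 0.05.

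The level of D-box activators against the repressor Nfil3 was read from FPKM, a level per length of gene and per library size, which allows genes of different length to be set side by side. The ratio of Dbp to Nfil3 was 0.00514, 0.667, 0.0508 and 0.0253 in the CS livers and 2.52, 0.516, 1.94, 0.689 and 2.43 in the PS livers. In the 3 CS livers other than CS02 there was thus far more Nfil3 than Dbp RNA, and in 3 PS livers more Dbp than Nfil3 RNA. In the lung the ratio was 0.0472, 0.0578 and 0.0978 in CS and 0.165, 0.304 and 0.281 in PS. Nfil3 RNA exceeded Dbp RNA in every lung, and the ratio was higher in each PS lung than in each CS lung. With Dbp, Tef and Hlf summed, the picture was another. The sum exceeded Nfil3 in every PS liver (1.76 to 5.19 times its level) and in the CS02 liver (2.53), but not in the other 3 CS livers (0.174 to 0.626). It also exceeded Nfil3 in every lung, at 1.27 to 2.65 in CS and 4.06 to 5.62 in PS, where Tef alone was 1.09 to 4.98 times Nfil3.

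The order of the 9 genes by level also differed. In CS livers Nfil3 led, with a median of 30.4 FPKM, followed by Tef at 9.02, Rgs16 at 5.55, Hlf at 5.27 and Bhlhe40 at 4.36, each overlapping the next in range. Dbp at 1.15 and Usp2 at 1.07 came next, and Bhlhe41 at 0.133 and Ciart at 0.0953 FPKM were last. In PS livers Rgs16 led with 73.7 FPKM, followed by Dbp at 30.5, Tef at 21.8, Bhlhe40 at 17.7 and Nfil3 at 15.7, and Rgs16 (33.5 to 109.8 FPKM) overlapped only the top of the range of Dbp (9.67 to 37.8 FPKM). In lungs Tef led on both diets, with medians of 20.2 FPKM in CS and 30.0 in PS. Rgs16 had the lowest median on both, at 0.601 and 0.462 FPKM. In CS lungs its range (0.485 to 1.09 FPKM) overlapped that of Dbp (0.603 to 0.903 FPKM). Ciart had medians of 2.18 FPKM in CS (1.60 to 2.43) and 12.6 FPKM in PS (3.29 to 22.2), where it was next after Tef.

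The tissues of the same mouse were then compared with mouse as a block, within each diet. The liver values are among those by which the genes were chosen, so these differences are a description too. In PS mice they also carry the diet difference of the livers. Here CPM were scaled over both tissues together, and a log2 difference is lung minus liver. In CS mice, Rgs16, Hlf, Nfil3, Dbp and Bhlhe40 were lower in the lung and Bhlhe41 was higher. Rgs16 had 16.7, 49.7 and 20.6 CPM in the livers of CS01, CS02 and CS04 and 1.44, 0.645 and 0.798 CPM in their lungs, a log2 difference of -4.74 (SE 0.47, edgeR adjusted p = 1.56e-05) that was -4.05 without CS02 and -5.40 without CS01. Hlf had 49.6, 37.7 and 73.0 CPM in these livers and 6.95, 9.49 and 6.48 CPM in the lungs (log2 difference -2.74, SE 0.32, edgeR adjusted p = 5.11e-05). Nfil3 went from 160.4, 38.0 and 86.4 CPM in liver to 15.6, 12 and 10.6 CPM in lung (-2.66, SE 0.34, edgeR adjusted p = 8.85e-05). In each of these 3 genes every lung was below every liver.

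Dbp was at 1.22, 37.4 and 6.49 CPM in the CS livers and 1.09, 1.03 and 1.53 CPM in the lungs of the same mice, a log2 difference of -2.57 (SE 0.77, edgeR adjusted p = 0.0160) that was small in CS01 and wide in CS02. It was -1.27 without CS02 and -3.58 without CS01, and edgeR called it in both cases. Without a filter on low counts the adjusted p of Dbp was 0.184. Bhlhe40 was at 23.3, 22.4 and 38.7 CPM in liver and 21.4, 12.7 and 12.1 CPM in lung (-0.83, SE 0.30, edgeR adjusted p = 0.0337), and the call was lost without mouse CS04 (-0.42, adjusted p = 0.291) or PS09 (adjusted p = 0.0516). Bhlhe41 was at 0.57, 4.36 and 0.598 CPM in liver and 7.72, 5.01 and 6.11 CPM in lung (2.33, SE 0.68, edgeR adjusted p = 0.0143), and its call was lost without CS01 (1.65, adjusted p = 0.0923) or CS04 (1.81, adjusted p = 0.0769), while without CS02 the difference was 3.57. Tef (-0.23, SE 0.33), Usp2 (-0.76, SE 0.54) and Ciart (1.73, SE 1.01) did not pass the test, with adjusted p of 0.561, 0.250 and 0.168. Without CS02, Ciart passed at 4.14 (adjusted p = 0.00443), and Tef and Usp2 turned to 0.16 and 0.15. Without CS01, Usp2 passed at -1.49 (adjusted p = 0.0293).

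In PS mice 7 genes were lower in the lung: Rgs16, Dbp, Hlf, Usp2, Bhlhe40, Nfil3 and Tef. Rgs16 had 297, 253 and 375 CPM in the livers of PS04, PS09 and PS15 and 0.606, 0.654 and 0.565 CPM in their lungs, the widest gap of the 9 genes at a log2 difference of -8.83 (SE 0.55, edgeR adjusted p = 7.92e-07). Dbp had 156, 134 and 165 CPM in liver and 1.68, 3.02 and 3.39 CPM in lung (-5.72, SE 0.73, edgeR adjusted p = 8.64e-05). Hlf differed by -3.75 (SE 0.33, edgeR adjusted p = 6.77e-06), Usp2 by -3.27 (SE 0.52, edgeR adjusted p = 0.000402), Bhlhe40 by -2.87 (SE 0.31, edgeR adjusted p = 2.41e-05) and Nfil3 by -2.50 (SE 0.33, edgeR adjusted p = 0.000110). Tef differed by -1.13 (SE 0.32, edgeR adjusted p = 0.0126), a call lost without PS04 (adjusted p = 0.0695) or PS09 (adjusted p = 0.0639). Ciart (-0.83, SE 0.82, edgeR adjusted p = 0.406) and Bhlhe41 (0.40, SE 0.58, edgeR adjusted p = 0.573) did not pass, and Ciart was at -0.056 without PS04 and -1.64 without PS15.

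Counted over the 6 mice, the lung was below the liver in 6 of 6 for Dbp, Hlf, Nfil3, Bhlhe40 and Rgs16, and above it in 1 of 6 for Tef and for Usp2, in both cases mouse CS01. It was above the liver in 5 of 6 mice for Bhlhe41 and in 3 of 6 for Ciart. In CS mice 5 of the 9 were called lower and 1 higher, beside 24.3% and 33.2% of the 17605 genes tested. In PS mice 7 were called lower and 0 higher, beside 23.8% and 33.9%. The median log2 difference of the 9 was -0.83 in CS mice and -2.87 in PS mice, and over all genes it was 0.32 and 0.36. The gap between the medians of the 9 carries the diet difference by which they were chosen. Of all genes, 57.5% were called in CS mice and 57.7% in PS mice, so the number called is not by itself a result about these 9.

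**Figure D3:**
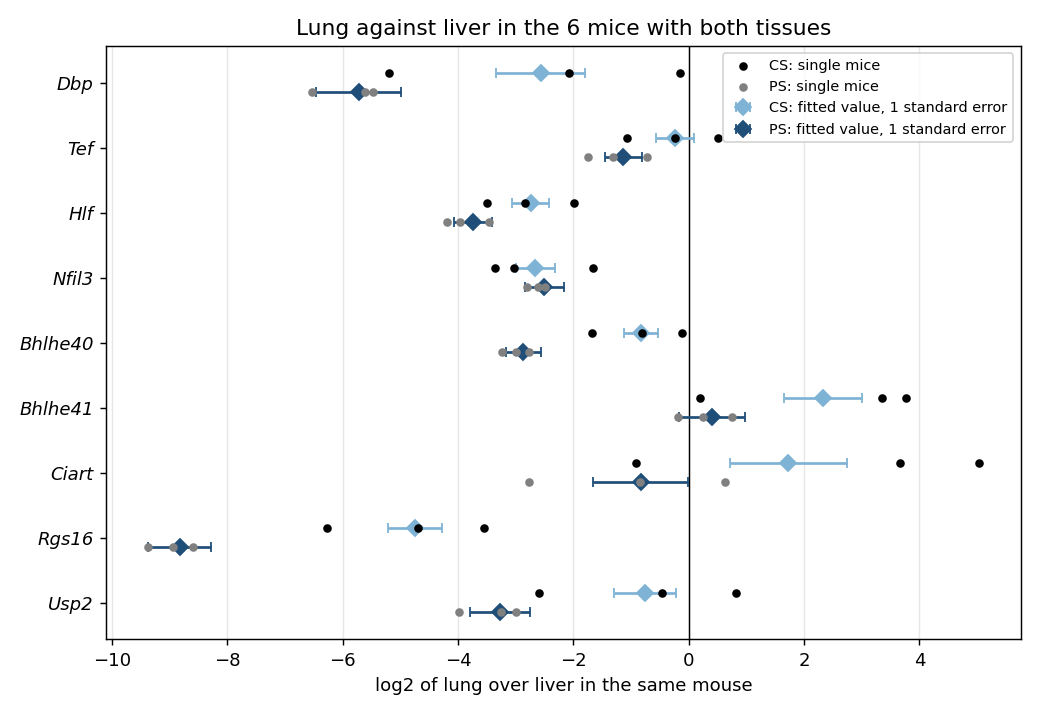
Log2 of lung over liver for each of the 9 genes in the 6 mice with both tissues, from CPM scaled over both tissues; small points are single mice, and diamonds are the fitted values for CS and PS mice with bars of 1 standard error. All 6 mice lie left of 0 for Dbp, Hlf, Nfil3, Bhlhe40 and Rgs16; Rgs16 in PS mice lies farthest left, at -8.83.

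Core clock genes were read beside these outputs. Of 16 core clock genes listed, 15 were tested in the liver, where edgeR called 0, beside 0.00758% of all genes. At an unadjusted p of at most 0.05, 5 were higher and 3 lower, beside 7.55% of all genes, and the median log2 fold change was 0.17, compared with -0.03 over all genes. Arntl, which encodes BMAL1, had 21.4, 13.9, 23.2 and 15.6 CPM in CS livers and 4.02, 9.66, 5.01, 7.02 and 5.37 CPM in PS livers, a log2 fold change of -1.57 (SE 0.27) with no overlap between the diets. Npas2, a partner of BMAL1 that can stand in for CLOCK, was also lower (-1.88, SE 0.40). Nr1d1 and Nr1d2, which encode the REV-ERB repressors that act on Arntl and Nfil3, were higher by 1.29 (SE 0.23) and 0.82 (SE 0.21). CS02 was at the low end of the CS range for Arntl and not apart for Nr1d1, which had 40.7, 41.0, 38.4 and 20.4 CPM in the 4 CS livers.

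In the lung all 16 were tested, and edgeR called 3 higher and 1 lower, beside 4.80% and 4.43% of all genes. The median was 0.04 for the list and 0.01 for all genes. Nr1d2 was higher by 0.80 (SE 0.15), Nr1d1 by 1.29 (SE 0.30) and the period gene Per1 by 0.92 (SE 0.23), and the cryptochrome gene Cry1 was lower (-0.79, SE 0.17). Arntl was at -0.39 (SE 0.17) in the lung. Nr1d1 had 16.8, 20.9 and 18.6 CPM in CS lungs and 24.9, 52.9 and 59.8 CPM in PS lungs, and so PS04 lay nearest to the CS lungs, as it did for Ciart and Dbp.

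**Figure D4:**
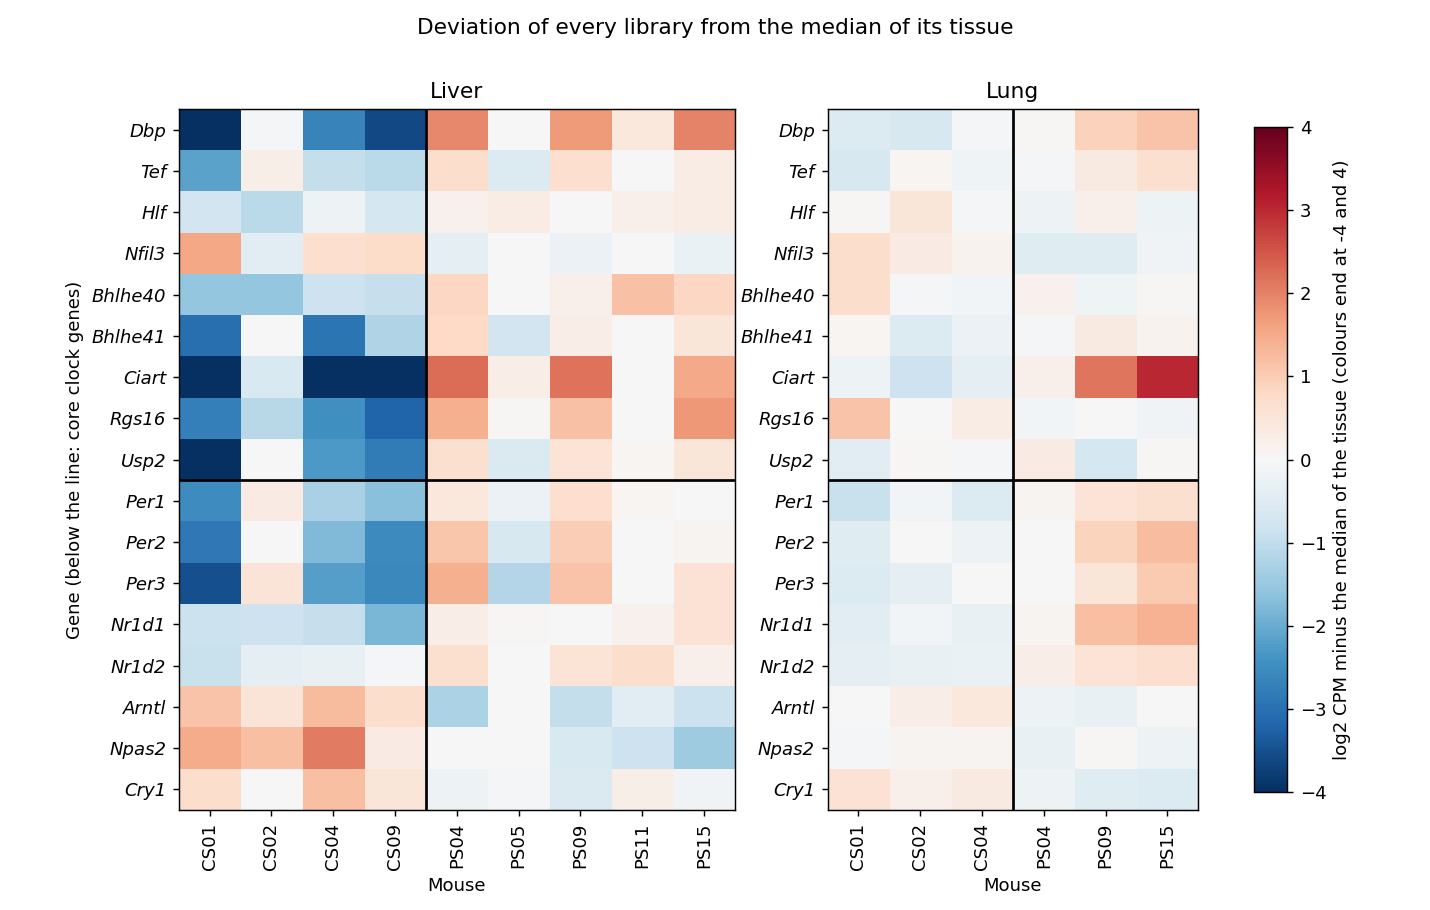
Deviation of each library from the median of its tissue, in log2 CPM, for the 9 genes (above the line) and 8 core clock genes (below it); columns are mice, with CS left and PS right of the vertical line, and colours end at -4 and 4. In the liver the column of CS02 is paler than those of the other CS mice for Dbp, Tef, Bhlhe41, Ciart, Rgs16, Usp2 and the period genes, and in the lung PS09 and PS15 carry the high values of Ciart, Dbp, Nr1d1 and Per2.

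Genes known to be controlled by PAR bZIP factors are mostly liver genes of drug and haem metabolism. Of 8 such genes, all tested in the liver, edgeR called 0, and 2 were higher at an unadjusted p of at most 0.05, beside 7.55% of all genes. By value 6 were higher and 2 lower, with a median log2 fold change of 0.52, compared with -0.03 over all genes. Alas1, the first enzyme of haem synthesis, was at 1.13 (SE 0.19), and Cyp2b10, a drug-metabolising cytochrome P450, at 0.88 (SE 0.33). Cyp2a5, another P450, was at 0.97 (SE 0.44), and Nr1i3, the nuclear receptor CAR, at 0.34 (SE 0.18). The 2 lower were Cyp7a1, the rate-limiting enzyme of bile acid synthesis, at -0.44 (SE 0.64) and Por, the P450 reductase, at -0.03 (SE 0.27), both named after their values were seen. In the lung 4 of the 8 were tested and edgeR called 0, beside 9.22% of all genes, with Alas1 at 0.11 (SE 0.23) and Cyp2b10 at -0.89 (SE 0.39).

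Glucocorticoids are a known daily signal to clock genes, Per1 among them, and 6 glucocorticoid response genes were therefore read beside the 9. All 6 were tested in the liver, and edgeR called 0. By value 5 were higher and 1 lower (Sgk1, -0.29, SE 0.22), and 4 were higher at an unadjusted p of at most 0.05, beside 7.55% of all genes. Zbtb16 was at 1.86 (SE 0.49) and Tsc22d3, which encodes GILZ, at 1.36 (SE 0.41). The 6 summed to 127 to 347 CPM in CS livers and 389.7 to 603 CPM in PS livers, but the sums overlapped when Tsc22d3 was left out (92.6 to 184 CPM in CS and 159 to 279 CPM in PS) or Klf9 was. In the lung they summed to 688 to 1201 CPM in CS and 1283 to 1417 CPM in PS, again overlapping without Tsc22d3 (339 to 557 and 391 to 534 CPM), and edgeR called 1 higher (Per1) and 1 lower (Klf9, -1.32, SE 0.34), beside 4.80% and 4.43% of all genes. Of the other cell types, fat cell genes (4 listed) did not overlap between the diets in the liver, with 22.4 to 72.5 CPM in CS livers (CS01 highest) and 3.40 to 21 CPM in PS livers. Macrophage genes, 4 in number, summed to 124 to 189.5 CPM in CS livers and 46.8 to 134 CPM in PS livers, and 4 endothelial genes to 40.1 to 55.1 and 19.7 to 52.6 CPM, and both overlapped between the diets. The part of glucocorticoid signalling and of cell composition in the diet differences of the 9 genes was not tested.

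The 9 genes did not follow each other equally in the tissues. Likeness was read as Pearson's r of log2 CPM over the 15 libraries, centred within each tissue, and is a description, since the points share the diet difference by which the genes were chosen. With Dbp, r was 0.94 for Usp2, 0.93 for Tef and for Ciart, 0.90 for Bhlhe41 and for Rgs16, 0.70 for Bhlhe40, 0.54 for Hlf and -0.87 for Nfil3. Within the 9 livers Usp2 and Rgs16 followed Dbp with r of 0.99 and 0.96, whereas within the 6 lungs r was -0.18 and -0.52. Rgs16 had only 18 to 50 counts per lung and averaged a log2 CPM under 1 there, so its r in the lung rests on few counts. Ciart and Tef followed Dbp in both tissues, with r of 0.95 for each over the livers and of 0.96 and 0.81 over the lungs.

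Among 9539 other genes that averaged a log2 CPM of 1 or more in both tissues, those most like Dbp were Mtss1 (r = 0.96), Per2 (0.96), Per3 (0.96), Efhd2 (0.93) and Cep85l (0.93). Per2 and Per3, which encode period proteins of the core loop, kept this in the lungs alone, with r of 0.93 and 0.96, whereas Mtss1, Efhd2 and Cep85l had r of 0.43, 0.25 and 0.35 there. The genes most like Ciart were Mvd (0.93), an enzyme of cholesterol synthesis, Per2 (0.93), Camk2n1 (0.92), Per3 (0.90) and Slc25a37 (0.90). Over the 6 lungs alone their r with Ciart was 0.73, 0.94, 0.81, 0.92 and 0.84.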

How the data were processed

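RNA-seq of liver and lung from CS and PS mice was read from the deposited tables. Per the labels and the study's methods, the authors aligned paired-end reads with HISAT2 2.0.5 to mm10 and counted reads per gene with featureCounts 1.5.0-p3. The deposited counts are raw, and the deposited FPKM values are levels per length of gene and per library size, made by the authors; whether counting used strand is not given in the sources used here. Tissue, diet and mouse were taken from the labels. The genes, lists and tests were chosen with earlier results of these data known, and genes outside the 9 were mostly named by smallest p within a list or by highest r. Some, such as Cyp7a1, Por and Sgk1 in the liver and Alas1 and Arntl in the lung, were named otherwise, with their values seen. Counts were tested with edgeR 4.0.16 in R 4.3.3 (TMM, filterByExpr, robust quasi-likelihood fit), with Benjamini-Hochberg adjustment over all genes tested and a threshold of 0.05: diet within each tissue, its difference in 1 model over 15 libraries, and lung against liver over 12 libraries of 6 mice with mouse as a block, since both tissues came from the same animal. Scripts were tested on simulated data. Alternatives were DESeq2 1.42.0, limma 3.58.1 on log2(FPKM + 1) and log2(FPKM + 0.1), other filters and scaling, removal of length or GC trends, a replicate block and leaving out each library. Totals of 14410117 to 19396057 assigned reads limit precision for genes of few counts. No 2 libraries of a group agreed within counting noise (chi-square per gene at least 22.1). Overlaps were read from GENCODE M21, and copies of at least 95% identity over 200 bases were found with blastn 2.17.0.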

Additional observations from a re-analysis of the deposited data

Results flagged for a closer look

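Over the 9 genes and the 2 liver groups (18 sets of values), 3 sets held a library far from the rest, all in the CS livers and all with mouse CS02 highest. The gap of CS02 to the next CS liver, as a share of the whole range of the group, was 0.861 for Dbp, 0.927 for Ciart and 0.849 for Usp2. Chance alone marks about 1 in 20 such sets where values are spread normally, and the genes share their libraries, so the 3 are not separate events. The shares were taken on CPM. On a log scale CS02 stood less far out, for Dbp at 4.74 log2 CPM beside -0.07, 2.18 and 1.28 in CS01, CS04 and CS09. CS02 had 26.6 CPM of Dbp, 2.76 CPM of Ciart and 28.9 CPM of Usp2, compared with at most 4.41, 0.256 and 5.92 CPM in the other 3 CS livers. In the lung of the same mouse these genes had 1.80, 3.60 and 11.8 CPM, the lowest of the 3 CS lungs for Dbp and Ciart and the highest for Usp2. In the CS02 liver macrophage genes summed to 189.5 CPM, B and plasma cell genes to 19.9 CPM and T and NK cell genes to 7.55 CPM, each the highest of the 9 livers. Hepatocyte genes summed to 112684 CPM there, above the other 3 CS livers and within the range of the PS livers. The part of these cell types was not tested.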

How the results depend on the processing

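In the liver, no gene of the 9 changed direction under any alternative, and the median log2 fold change stayed between 1.45 and 2.37. The number called higher was 0 in the reported fit, 4 with DESeq2, 1 without a filter on low counts (Bhlhe40; 26 of all 24517 genes) and 0 to 5 when single libraries were left out (0 to 65 of all genes), and the number called lower was 0 to 1 when single libraries were left out. A minimum of 10 counts in every library removed Ciart and Bhlhe41. In the lung, the number called higher was 2 with DESeq2, 0 with limma on log2(FPKM + 1) or log2(FPKM + 0.1), where 1085 of all genes were called on either scale, and 0 to 2 when single libraries were left out, where 0 to 2949 of all genes were called. The number called lower was 0 with limma on either scale and 0 to 1 when single libraries were left out. Leaving out single lungs moved Bhlhe40 between -0.35 and 0.083 and Usp2 between -0.16 and 0.32 (turned to 0.083 and -0.084 without CS replicate 1), Hlf between -0.38 and -0.074, Rgs16 between -0.86 and -0.24, Bhlhe41 between 0.20 and 0.51, Tef between 0.35 and 0.71, and the median of the 9 between -0.16 (without PS replicate 1) and 0.25. For the difference between tissues, the number called lower was 3 with DESeq2, 1 without a filter on low counts (10 of all 30732 genes) and 0 to 2 when single libraries were left out (0 to 12 of all genes). With single libraries left out, Nfil3 lay between -0.27 (without liver CS replicate 1) and 0.39, and Tef between -1.07 and -0.28. For lung against liver in CS mice, the number called higher was 2 with DESeq2 (6374 of all 17605 genes) and 0 to 2 when single mice were left out (4574 to 5685 of all genes). Tef lay between -0.59 and 0.16, and Usp2 between -1.49 and 0.15, both highest without CS02. In PS mice no direction changed. The cause of these shifts was not tested. Leaving single genes out of the glucocorticoid sums was chosen after seeing the data.

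Replicate numbers were shared between the diets, but same-numbered samples of replicates 1 to 3 did not deviate together (liver correlations of -0.36, -0.29 and -0.34, lung correlations of 0.05, -0.01 and 0.10). Replicate 4 of the livers was not checked. With the replicate block the lung had 0 of the 9 called higher and 0 called lower, where 817 and 806 of all 16717 genes were called. The liver again had 0 of the 9, and there 0 of all 13195 genes were called (487 at an unadjusted p of at most 0.05). Without the mouse as a replicate block, the calls of the 9 genes between tissues were unchanged in number. Of all 17696 genes, 11873 were then called in CS mice and 12154 in PS mice, compared with 10118 and 10151 of 17605 with the block. Limma on log2(FPKM + 1) was run between tissues but left out of the values for the 9 genes, because the FPKM came in a separate table for each tissue. In CS mice it called 11555 of all genes higher in the lung and 2053 lower, with a median log2 difference of 0.78. The edgeR fit called 5843 and 4275, with a median of 0.32. The balance of calls between tissues thus depended on the method.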

Other observations

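Immediate early genes respond within minutes to handling and other stimuli. Of 9 listed, 8 were tested in the liver and edgeR called 0, with Nr4a1 at -2.43 (SE 0.46) and Atf3 at -1.20 (SE 0.55) as the 2 at an unadjusted p of at most 0.05, beside 0.00758% and 7.55% of all genes. They summed to 105 to 369.96 CPM in CS livers and 137 to 452 CPM in PS livers. In the lung all 9 were tested and edgeR called 0, and 0 had an unadjusted p of at most 0.05, whereas 1542 of all 16717 genes were called and 5040 had such a p.

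Between the tissues, 7 of the 16 core clock genes were called in CS mice (3 higher and 4 lower in the lung) and 9 in PS mice (4 higher and 5 lower), beside 57.5% and 57.7% of all genes. Nr1d1 was lower in the lung on both diets, by -2.41 (SE 0.28, edgeR adjusted p = 4.86e-05) in CS and -2.32 (SE 0.28, edgeR adjusted p = 6.07e-05) in PS mice. Csnk1e, a casein kinase that marks period proteins for decay, was higher in the lung, by 2.51 (SE 0.28, edgeR adjusted p = 3.62e-05) and 3.21 (SE 0.29, edgeR adjusted p = 7.84e-06). Of the 8 genes known as PAR bZIP targets, 6 were called lower in the lung and 1, Cyp2b10, higher, on both diets.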
